A study of Mus musculus with 6 samples.

Results

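The genes of 6 immune surface proteins were followed through the microglial ribosome pull-down of mouse hippocampus: the SLAM family members Cd84 and Cd48, the costimulatory ligand Cd86, the toll-like receptor relative Cd180 with its partner Ly86, and the small glycoprotein Cd52. The genes were given by name, with no threshold on their values, although earlier results of these data were known when they were picked. All 6 were found among the 15388 genes of the table, and all 6 passed the filter on low reads, which left 15344 genes for testing.

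The mice were Cx3cr1-Cre/Ert2+; NuTRAP+, with 1 copy of each allele, and were about 3 months old by the methods of the study. Tamoxifen had been given to every animal, so that the Cre recombinase made from the Cx3cr1 promoter could switch on the NuTRAP reporter, which puts GFP on ribosomes. Cleared hippocampal homogenate was kept as Input, and ribosomes pulled down with antibody to GFP gave the Positive fraction. Animals 201, 207 and 208 each gave 1 Input and 1 Positive library, 6 in all, so both fractions share genotype, treatment and animal. No group without Cre was analysed here, and the labels do not give the sex of the animals. The Cx3cr1 promoter is also active in other macrophages and in monocytes. For this mouse line the study reports waiting weeks after tamoxifen before collecting brain, so that short-lived circulating monocytes would not carry the label.

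SLAM receptors sit on blood-derived cells and bind mostly to a copy of themselves on a neighbouring cell. Cd84 is such a self-binding receptor, whereas Cd48 is held in the membrane by a GPI anchor, has no tail inside the cell, and binds the receptors Cd244a and Cd2. Cd86 and its relative Cd80 are the B7 ligands through which antigen-presenting cells engage Cd28 and Ctla4 on T cells. Cd180 resembles Tlr4 outside the cell but lacks its signalling domain, and it reaches the surface together with Ly86, as Tlr4 does with Ly96. Cd52 is a very short GPI-anchored glycoprotein of lymphocytes and macrophages. In the brain, these proteins are known mainly from microglia and from macrophages at its borders.

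All 6 genes were higher in Positive than in Input by the edgeR quasi-likelihood test with Benjamini-Hochberg adjustment over all genes tested. In each of them every Positive library lay above every Input library. Cd48, Cd180 and Cd52 passed the filter of 20 scaled reads only through the Positive libraries. For Cd48, with at most 12.2 scaled reads in Input, the separation of the libraries followed from that filter and adds nothing. The fitted fold changes ran from 14.6-fold for Cd52 to 30.3-fold for Ly86, with Cd86 at 19.4-fold, Cd84 at 24.0-fold, Cd48 at 24.4-fold and Cd180 at 25.1-fold (n = 3 per fraction). As background, 24.0% of all genes tested were called higher, 28.9% had every Positive library above every Input library, 3.75% were called higher by over 5-fold and 1.34% by over 16-fold. Under total count scaling the background tilted, to 3048 genes called higher and 4281 lower in place of 3684 and 3370, and the 6 genes stayed higher. All 6 genes passed the limit of 5-fold, and 5 of 6 passed that of 16-fold, Cd52 being the exception. Ordered by log2 fold change among 15344 genes, Ly86 stood at place 27, Cd180 at 68, Cd48 at 79, Cd84 at 81, Cd86 at 142 and Cd52 at 234. Input and Positive came from the same homogenate of each animal, so a fold change describes enrichment by the pull-down. In bulk RNA of this kind, the number of cells of a type and the RNA per cell cannot be told apart.

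**Figure D1:**
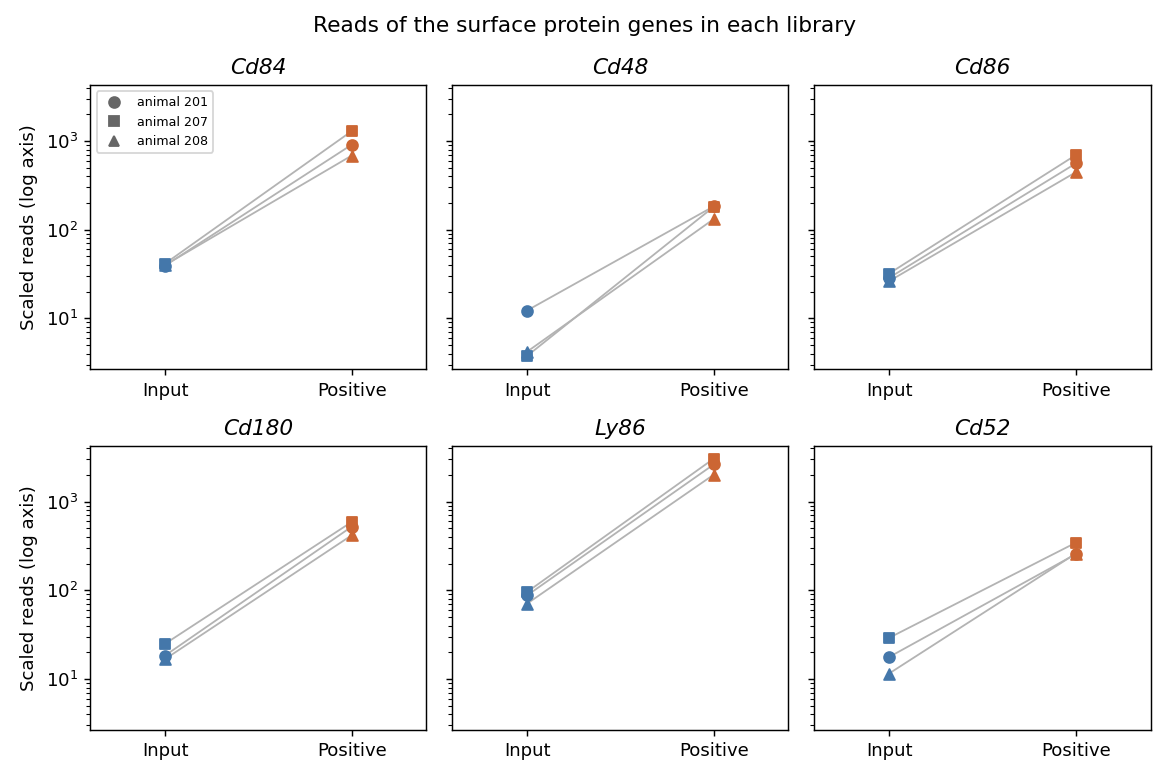
Scaled reads (reads divided by the size factor of the library, log axis) of each gene in the Input and Positive fraction, with a line joining the libraries of 1 animal. In every panel the 3 Positive points lie above the 3 Input points, with Ly86 reaching 3066 scaled reads and Cd48 starting as low as 3.76.

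The libraries held 14879734 to 17757918 reads, with no fraction standing apart in depth. All 8 microglia markers used as a reference (among them Tmem119, P2ry12, Sall1, Cx3cr1 and Csf1r) were higher in Positive, with summed scaled reads of 4092 to 4293 in Input and 78453 to 115288 in Positive and a median log2 fold change of 4.69. The 8 markers of border macrophages, among them Mrc1, Lyve1 and Pf4, were likewise all higher, from 522 to 588 summed scaled reads in Input to 6064 to 11860 in Positive, with a median of 4.08. Of 6 B cell markers 3 were analysed, and Cd79b, Cd22 and Ighm were higher by 3.97, 4.11 and 3.22 on the log2 scale. Summed, the B cell markers ranged from 159 to 193 scaled reads in Input and from 1393 to 2072 in Positive, while Ms4a1 and Cd79a were not analysed here. The B cell sums were mostly Ighm, with means of 168 in Input and 1564 in Positive. Of 9 T and NK cell markers Cd4 alone was analysed, with a log2 fold change of 3.68 and sums of 1.88 to 10.2 scaled reads in Input and 47.8 to 68.0 in Positive. Monocyte markers were analysed for 2 of 6 genes, Ly6c2 being higher by 1.61 and Vcan lower. Their sums were 248 to 262 in Input and 103 to 156 in Positive. These sums were mostly Vcan, with means of 245 in Input and 105 in Positive, beside 7.29 and 22.6 for Ly6c2. Dendritic cell markers were analysed for 3 of 6, with Cd209a higher by 4.23, Flt3 lower and Zbtb46 not called. The sums were 298 to 362 in Input and 291 to 348 in Positive, mostly from Flt3 and Zbtb46. Cd209a itself had means of 3.99 in Input and 77.4 in Positive. No neutrophil marker of 6 was analysed here. Among these markers, Lyve1, Pf4, Ms4a7, Cd79b, Cd22, Cd4, Ly6c2 and Cd209a passed the filter on low reads only through the Positive libraries. Except for Lyve1, all had fewer than 20 scaled reads in each Input library, so the separation of the fractions followed from that filter. The part of border macrophages and blood cells in the values of the 6 genes was not tested.

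Cd84 (ENSMUSG00000038147) lies on chromosome 1 at 171839697 to 171890718, plus strand, in the build mm10 used throughout. It had 39.3, 41.3 and 39.9 scaled reads in the Input libraries of animals 201, 207 and 208, and 909, 1294 and 685 in the Positive libraries. The Input libraries were nearly level, whereas the Positive libraries differed, with animal 207 highest and animal 208 lowest. The means were 40.2 ± 1.07 in Input and 963 ± 308 in Positive (SD, n = 3). The fit gave a log2 fold change of 4.59, SE 0.23, at adjusted p = 5.70e-09 (edgeR). By animal, the log2 ratio of Positive to Input was 4.50, 4.93 and 4.07.

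Cd48 (ENSMUSG00000015355), the GPI-anchored ligand, lies upstream of Cd84 on the same strand at 171682009 to 171705258 and had the fewest reads of the 6 genes. Its Input libraries held only 12, 4 and 4 raw reads in animals 201, 207 and 208, or 12.2, 3.76 and 4.20 scaled reads, against 183, 181 and 132 scaled reads in Positive. Animal 201 was thus high in Input and alike to animal 207 in Positive, so that its log2 ratio, 3.80, was the lowest, beside 5.26 and 4.68. The mean rose from 6.73 ± 4.78 to 166 ± 29.1 scaled reads (SD, n = 3), which is 4.61 on the log2 scale of the fit, SE 0.34, at adjusted p = 2.28e-07 (edgeR). Its fold rests on few Input reads: leaving out Input of animal 201 moved its log2 fold change to 5.34. Leaving out Input of animal 207 moved it to 4.30.

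Set against one another within each library, the reads of Cd84 and Cd48 kept a ratio whose log2 was 2.58 ± 0.85 in Input and 2.50 ± 0.29 in Positive (SD, n = 3). The ranges overlapped, from 1.60 to 3.15 in Input and from 2.30 to 2.83 in Positive, and the difference of -0.08 had an exact permutation p of 0.9 (two-sided) and an adjusted p of 0.9 over the 5 ratios tested. The 3 Input values alone span more than the difference, and with 3 libraries against 3 the smallest possible p is 0.1, so this design could not have passed at 0.05.

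In the table, 5 SLAM genes lie side by side on chromosome 1, within 364.5 kb from Ly9 to Slamf6, and 1 of them ran against the others. From left to right these are Ly9, Cd48, Slamf1, Cd84 and Slamf6, with Ly9 on the minus strand and the rest on the plus strand. Slamf1, a self-binding receptor of lymphocytes and macrophages that lies between Cd48 and Cd84 at 171767127 to 171801184, had 50.8, 40.9 and 38.8 scaled reads in Input and 30.4, 19.3 and 25.1 in Positive. Every Positive library of Slamf1 was below every Input library, the reverse of its neighbours on either side. The fitted change was -0.79 on the log2 scale, SE 0.28, at adjusted p = 0.0331 (edgeR). This call was not secure, since the adjusted p was 0.0795 by DESeq2 and, in edgeR, 0.110, 0.0627 and 0.0537 on leaving out Input of animal 201, 207 or 208, and 0.119 on leaving out Positive of animal 207. In Input the level of Slamf1 per kb of exon, 7.07 ± 1.04 scaled reads, was near those of Cd84, 6.40 ± 0.17, and Cd48, 5.66 ± 4.02, whereas in Positive it was 4.05 ± 0.90 beside 154 ± 49.1 and 139 ± 24.5 (SD, n = 3).

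**Figure D2:**
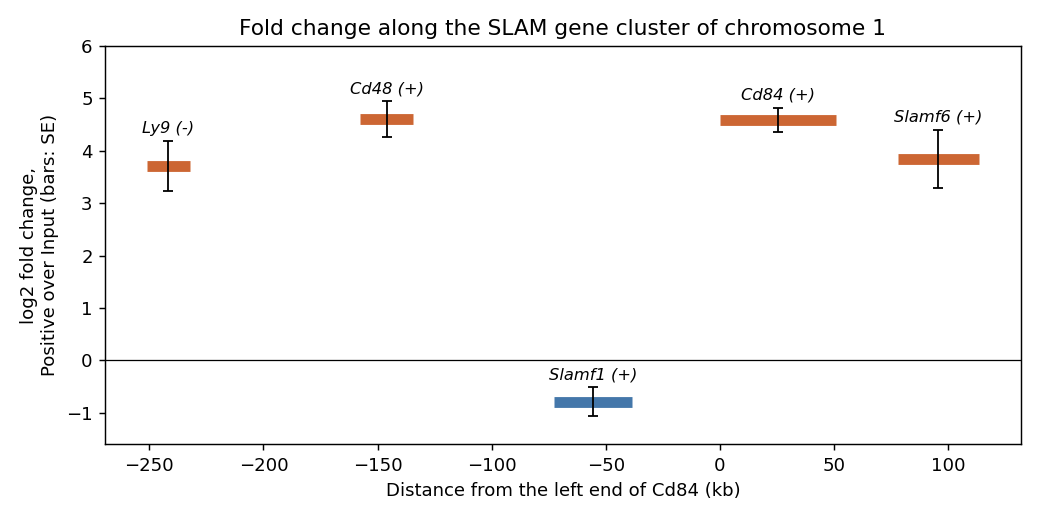
Log2 fold change of Positive over Input (vertical axis, bars are the SE of the fit) of the SLAM genes around Cd84, each drawn as a bar over its extent in kb from the left end of Cd84. Slamf1, at -0.79, is the gene below 0 between Cd48, at 4.61, and Cd84, at 4.59.

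The promoters of these 3 neighbours are shown because the genes lie next to each other and went in opposite directions. Each is the stretch of 300 bases from 250 before to 50 after the start of the gene, taken from RefSeq on GRCm38.p6, at chr1:171681742-171682041 for Cd48, chr1:171766882-171767181 for Slamf1 and chr1:171839447-171839746 for Cd84, all on the plus strand. Capitals mark matches, on either strand, to GAGGAA or GGAAGT, which overlap in GAGGAAGT, a form of the site known to be bound by the macrophage factor PU.1 (Spi1).
Cd48: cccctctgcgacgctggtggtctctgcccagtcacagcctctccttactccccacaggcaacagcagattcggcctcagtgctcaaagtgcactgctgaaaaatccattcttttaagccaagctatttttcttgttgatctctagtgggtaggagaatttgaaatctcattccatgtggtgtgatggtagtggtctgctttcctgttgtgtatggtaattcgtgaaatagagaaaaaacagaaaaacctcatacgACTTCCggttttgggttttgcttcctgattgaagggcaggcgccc
Slamf1: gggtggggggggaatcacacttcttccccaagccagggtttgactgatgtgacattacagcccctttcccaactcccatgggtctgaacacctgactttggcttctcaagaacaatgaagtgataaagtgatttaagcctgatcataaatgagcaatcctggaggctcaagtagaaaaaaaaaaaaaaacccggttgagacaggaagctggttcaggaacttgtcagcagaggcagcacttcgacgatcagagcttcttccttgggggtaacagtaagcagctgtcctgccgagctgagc
Cd84: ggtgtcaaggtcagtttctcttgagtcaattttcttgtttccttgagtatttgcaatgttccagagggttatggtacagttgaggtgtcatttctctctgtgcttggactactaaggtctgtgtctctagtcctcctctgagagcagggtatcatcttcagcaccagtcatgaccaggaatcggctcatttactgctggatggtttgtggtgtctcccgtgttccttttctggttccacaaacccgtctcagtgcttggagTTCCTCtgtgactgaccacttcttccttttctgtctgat

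In Cd48 the match was to GGAAGT on the minus strand, with its first base at position 6 from the start, and in Cd84 to GAGGAA on the minus strand at position 12, counting the start as 1. Slamf1 held neither in this window. Of 32851 promoters of the same length, 28.3% held GAGGAA, 23.8% held GGAAGT and 3.20% held the whole GAGGAAGT on either strand. Capitals mark a match to either GAGGAA or GGAAGT, and the share of promoters with either is not given here. That share is at least 28.3%, so such a match is common. Neither GAGGAAGT nor the repeat bound by interferon regulatory factors, nor the TATA box TATAAA was found in the windows of Cd48, Slamf1 or Cd84, and these last 2 were held by 3.44% and 13.6% of promoters. Promoters were matched for 4 of the 6 genes, with Cd86 and Cd52 not among them.

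Beyond Cd84 and Cd48, 5 of the 8 other genes of the SLAM receptor and ligand list were analysed, and 4 were higher and 1, Slamf1, lower. Those that rose were receptors of lymphoid and myeloid cells, Ly9 by 3.71 ± 0.47, Slamf6 by 3.85 ± 0.56, Slamf8 by 4.34 ± 0.56 and Slamf9 by 3.99 ± 0.28 (log2 fold change ± SE), at adjusted p = 3.86e-05, 1.07e-04, 4.18e-05 and 1.35e-07 (edgeR). Slamf6 and Slamf8 had at most 6 raw reads in any Input library, and their log2 fold changes reached 4.80 on leaving out Input of animal 208 and 4.99 on leaving out Input of animal 207, respectively. Slamf6 came to 3.25 on leaving out Input of animal 207, where it had 0 reads. For Slamf8 the lowest value was 3.80, on leaving out Input of animal 208. The errors of Cd84 and Cd48, 0.23 and 0.34, were smaller than those of Slamf6, Slamf8 and Ly9. Cd244a and Cd2, the receptors of Cd48, and Slamf7 were not analysed here. Among 7 adaptors and effectors of SLAM signalling 4 were analysed. The phosphatases Ptpn6 and Inpp5d were higher by 4.88 and 4.53, whereas Ptpn11, also a phosphatase, and the kinase Fyn had 0.08 and -0.13 and were not called (edgeR adjusted p 0.449 and 0.184). Fyn was called lower under total count scaling (edgeR adjusted p 0.0380) and on leaving out Positive of animal 208 (edgeR adjusted p 0.0423).

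Cd86 (ENSMUSG00000022901), the B7 ligand, lies on chromosome 16 at 36603869 to 36666081 on the minus strand. It had 28.6, 31.9 and 26.2 scaled reads in the Input libraries of animals 201, 207 and 208 and 558, 694 and 444 in Positive. Animal 207 was highest and animal 208 lowest in both fractions, and the log2 ratio was therefore much alike in the 3 animals, at 4.24, 4.40 and 4.03. Means were 28.9 ± 2.88 in Input and 566 ± 125 in Positive (SD, n = 3). In the fit this was 4.28 on the log2 scale, SE 0.20, at adjusted p = 2.94e-09 (edgeR).

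The B7 list had 7 further ligands, of which 5 were analysed and all 5 were higher. They lay in separate ranges of fold change. Cd80, the nearest relative of Cd86, rose by 3.80 ± 0.50 and Vsir, an inhibitory ligand, by 4.45 ± 0.14 (log2 ± SE), at adjusted p = 4.95e-05 and 2.08e-10 (edgeR). Cd274, Icosl and Cd276 rose by only 0.87, 0.87 and 0.51 (edgeR adjusted p 0.00759, 3.68e-04 and 0.0151). The call of Cd276 was lost on leaving out Input or Positive of animal 207 (edgeR adjusted p 0.0680 and 0.0556). Per kb of exon, Cd86 had 154 ± 34.1 scaled reads in Positive, against 15.4 for Cd80 and 1839 for Vsir. Cd80 had only 1, 7 and 4 raw reads in Input. Its log2 fold change was 4.40 on leaving out Input of animal 207 and 3.35 on leaving out Positive of animal 207. The receptors Cd28, Ctla4, Icos and Pdcd1 were not analysed here.

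**Figure D3:**
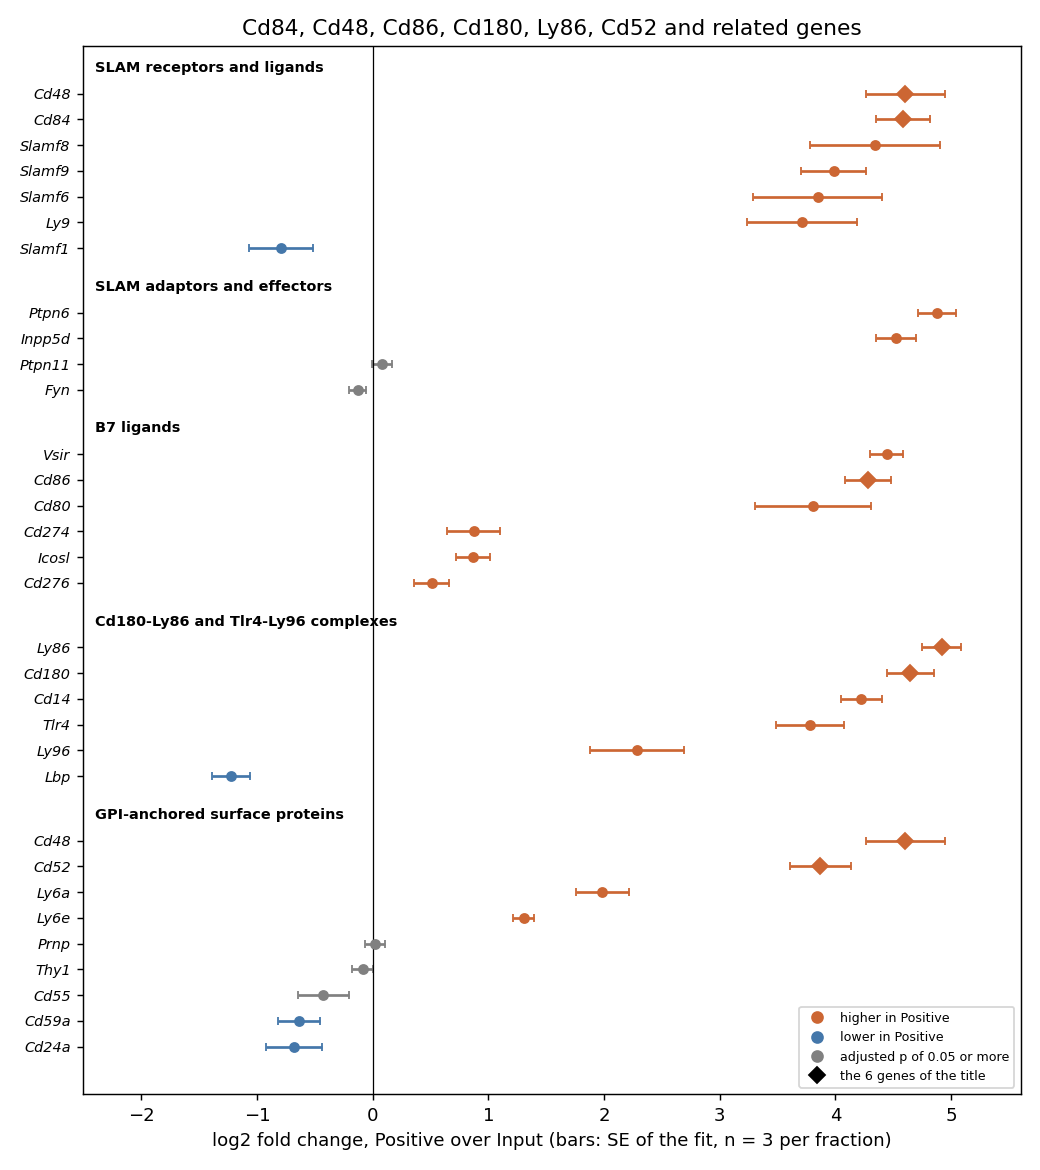
Log2 fold change of Positive over Input (horizontal axis, bars are the SE of the fit, n = 3 per fraction) of the 6 genes, drawn as diamonds, and of the genes of the same families or complexes, drawn as circles and coloured by call. The diamonds lie between 3.87 and 4.92, while their lists reach down to -0.79 for Slamf1 and -1.23 for Lbp.

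Cd180 (ENSMUSG00000021624) lies on chromosome 13 at 102693558 to 102739629, plus strand. It had 18.4, 25.0 and 16.8 scaled reads in the Input libraries of animals 201, 207 and 208 and 524, 593 and 419 in the Positive ones. The order of the animals was the same in both fractions, with 207 highest and 208 lowest. From 20.1 ± 4.34 in Input the mean rose to 512 ± 87.2 in Positive (SD, n = 3), and the fit put the rise at 4.65 on the log2 scale, SE 0.21, at adjusted p = 1.61e-09 (edgeR). The log2 ratios of the 3 animals were 4.76, 4.51 and 4.56. Its exons share 182 bases with those of Mast4 on the opposite strand, which had a log2 fold change of -0.27, and the libraries were made and aligned by strand.

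Ly86 (ENSMUSG00000021423), the secreted partner that Cd180 needs to reach the surface, lies on the same chromosome at 37345208 to 37419036, plus strand. Its Input libraries had 87.7, 95.8 and 70.8 scaled reads and its Positive libraries 2636, 3066 and 2023 in animals 201, 207 and 208. Again animal 207 was highest and 208 lowest in each fraction. Mean scaled reads were 84.8 ± 12.8 and 2575 ± 524 (SD, n = 3). Its fitted log2 fold change, 4.92 with SE 0.17, was the largest of the 6 genes and had the smallest error, at adjusted p = 2.77e-10 (edgeR). Across animals the log2 ratio was 4.89, 4.98 and 4.82, also the narrowest spread of the 6.

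Cd180 and Ly86 are shown together because their proteins are partners and both genes rose. Their RefSeq promoters on GRCm38.p6, of 300 bases each and on the plus strand, are chr13:102693297-102693596 for Cd180, where it is the window of 1 of 2 starts, and chr13:37345095-37345394 for Ly86. Capitals have the same meaning as for Cd48 and Cd84.
Cd180: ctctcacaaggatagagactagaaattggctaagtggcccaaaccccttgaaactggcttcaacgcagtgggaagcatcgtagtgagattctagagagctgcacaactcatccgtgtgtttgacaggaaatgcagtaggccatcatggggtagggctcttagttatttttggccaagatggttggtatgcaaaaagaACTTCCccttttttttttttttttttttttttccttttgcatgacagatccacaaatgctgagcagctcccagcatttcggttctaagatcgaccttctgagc
Ly86: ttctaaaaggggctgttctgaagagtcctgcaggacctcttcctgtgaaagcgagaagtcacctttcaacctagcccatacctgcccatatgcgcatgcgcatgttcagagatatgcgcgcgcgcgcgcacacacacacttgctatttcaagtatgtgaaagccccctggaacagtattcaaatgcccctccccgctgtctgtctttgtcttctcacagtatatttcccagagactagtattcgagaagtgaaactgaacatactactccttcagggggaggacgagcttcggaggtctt

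The window of Cd180 held GGAAGT on the minus strand, with its first base at position -53, and that of Ly86 held none of the 5 motifs searched. As stated for Cd48, 23.8% of all promoters held GGAAGT.

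Within each library the log2 ratio of Ly86 to Cd180 was 2.04 ± 0.15 in Input and 2.32 ± 0.05 in Positive (SD, n = 3). The ranges did not overlap, from 1.90 to 2.19 in Input and from 2.27 to 2.37 in Positive, but the difference was small, at 0.29, and its exact permutation p was 0.1, the smallest that 3 against 3 libraries can give, or 0.167 adjusted over 5 ratios. In their profile over the 6 libraries Cd180 and Ly86 were the closest pair of the 6 genes, with a Euclidean distance of 0.415 between log2 scaled reads centred on the mean of each gene. Next came Cd84 and Cd86 at 0.425, and farthest apart were Cd48 and Cd52 at 1.80. Outside the 6 genes there were closer profiles, Fcgr2b at 0.239 from Cd180 and Cx3cr1 at 0.256 from Ly86. The distance of Cd180 and Ly86 is thus not particular to partners.

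Tlr4 with Ly96 is the other receptor complex of the same build. Tlr4, the receptor for lipopolysaccharide, rose by 3.78 and Ly96 by 2.29 on the log2 scale (SE 0.29 and 0.41), beside 4.65 for Cd180 and 4.92 for Ly86, and the ratio of Tlr4 to Ly96 was not tested. The log2 ratio of Ly86 to Ly96 went from 3.09 ± 0.90 in Input to 5.76 ± 0.42 in Positive, and that of Cd180 to Tlr4 from 0.42 ± 0.21 to 1.37 ± 0.23 (SD, n = 3). Neither pair of ranges overlapped. The differences were 2.67 and 0.95, each with an exact permutation p of 0.1, the smallest possible, and 0.167 after adjustment, so that neither could pass at 0.05 in this design. Ly96 had 7.79, 6 and 15 raw reads in Input, which limits its ratio to Ly86. In the list of both complexes 4 genes are not among the 6, and of these Tlr4, Ly96 and the coreceptor Cd14, at 4.22, were higher and Lbp, the carrier of lipopolysaccharide in serum, was lower at -1.23 (edgeR adjusted p 6.04e-05).

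**Figure D4:**
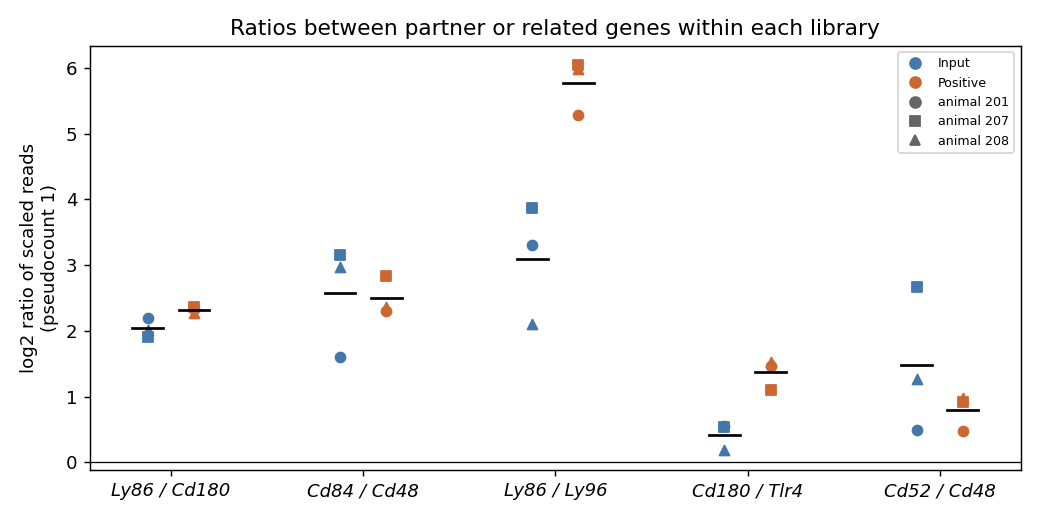
Log2 ratio of scaled reads of the first to the second gene in each library (vertical axis, pseudocount of 1), with symbols for the animals, colours for the fractions and black lines for the means. Fractions are apart for Ly86 to Cd180, Ly86 to Ly96 and Cd180 to Tlr4, and overlap for Cd84 to Cd48 and Cd52 to Cd48.

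Cd52 (ENSMUSG00000000682), the shortest of these proteins, lies on chromosome 4 at 134082448 to 134095082 on the minus strand. Scaled reads in Input were 17.7, 29.1 and 11.5 in animals 201, 207 and 208, and in Positive they were 256, 345 and 261. Input spread more than Positive, and animal 208, lowest in Input, had the highest log2 ratio at 4.38, beside 3.78 and 3.52. The mean rose from 19.5 ± 8.93 to 287 ± 50.0 scaled reads (SD, n = 3), for a fitted log2 fold change of 3.87, SE 0.26, at adjusted p = 9.57e-08 (edgeR). This was the smallest fold change of the 6 genes. Its exons share 172 bases with Crybg2 on the opposite strand, which was not analysed here.

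In the GPI-anchored list of 9 genes, Cd48 and Cd52 had the largest log2 fold changes, 4.61 and 3.87, and Ly6a came next. The list is not complete, and this ranking holds within it only. Cd14, also GPI-anchored but listed with the Tlr4 complex, had 4.22, above Cd52. Among the other 7, Ly6e rose by 1.31 and Ly6a by 1.99, Cd59a, an inhibitor of complement, fell by 0.64, and Cd24a, a glycoprotein of young neurons and blood cells, fell by 0.68 on the log2 scale (edgeR adjusted p 1.20e-07, 1.65e-05, 0.0114 and 0.0372). Thy1, Prnp and Cd55 were not called, with log2 fold changes of -0.09, 0.02 and -0.43. The median of the 9 was 0.02, beside -0.01 over all genes tested. The calls of Cd24a and Cd59a did not hold throughout, since leaving out single libraries took the edgeR adjusted p of Cd24a to 0.137 (Input of animal 201), 0.102 (Input of 207), 0.0718 (Positive of 201) and 0.0872 (Positive of 208), and that of Cd59a to 0.0541 (Input of 201). By limma on the deposited log2 values, Cd24a had an adjusted p of 0.0628. The log2 ratio of Cd52 to Cd48 was 1.48 ± 1.10 in Input and 0.79 ± 0.27 in Positive (SD, n = 3). The ranges overlapped, and the difference of -0.68 had an exact permutation p of 0.4 and an adjusted p of 0.5.

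Taking the pathway lists as a whole, 25 of the 37 genes other than the 6 were tested, and 16 were higher, 4 lower and 5 not called in Positive. Among those higher, Ly9, Slamf6, Slamf8, Slamf9, Cd80, Tlr4 and Ly96 passed the filter on low reads only through the Positive libraries. Of all genes tested, 46.0% were called in either direction, 24.0% were called higher and 22.0% were called lower. The same shares are the background of the counts given above for single lists. These counts describe the lists, which were not chosen independently of earlier results.

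Levels can be set side by side only per length, and per kb of exon the genes fell into 3 tiers in Positive. Ly86 was highest at 709 ± 144 scaled reads per kb, Cd52 followed at 242 ± 42.1, and neither overlapped its neighbour below. Then came Cd86 at 154 ± 34.1, Cd84 at 154 ± 49.1, Cd48 at 139 ± 24.5 and Cd180 at 114 ± 19.3 (SD, n = 3), each overlapping the next. Cd52 thus had the smallest fold change and the next to highest level. In Input the order of the means was the same, from 23.3 ± 3.52 for Ly86, 16.4 ± 7.52 for Cd52, 7.90 ± 0.79 for Cd86 and 6.40 ± 0.17 for Cd84 to 5.66 ± 4.02 for Cd48 and 4.45 ± 0.96 for Cd180, but there Ly86 overlapped Cd52, and Cd86 lay above Cd84 with no overlap. Exon lengths were 3632 bases for Ly86, 1187 for Cd52, 3661 for Cd86, 6272 for Cd84, 1189 for Cd48 and 4509 for Cd180, from the exons of all transcripts joined, so levels depend on which transcripts are used.

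**Figure D5:**
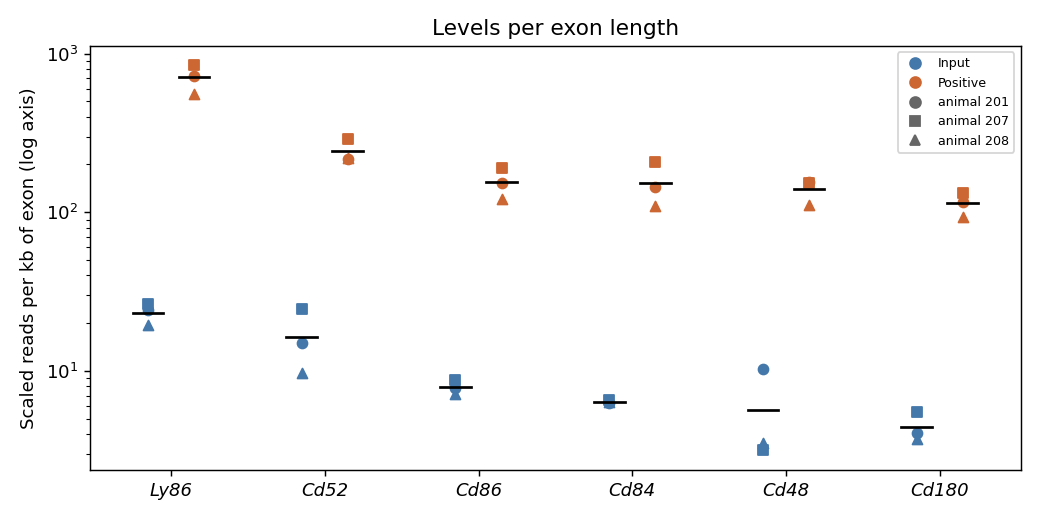
Scaled reads per kb of exon (vertical log axis) of each gene in the 3 Input and 3 Positive libraries, ordered by the Positive mean, with black lines for the means and symbols for the animals. Ly86, at 709, and Cd52, at 242, stand above the other 4 genes, which lie between 114 and 154.

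Next, the 6 genes were set beside genes that mark microglia. Their median log2 fold change was 4.60, beside 4.69 for the 8 reference markers, 3.65 for 235 genes of the microglia list that the study took from published cell sorting, 4.17 for 135 genes of its ribosomal-tagging list and -0.01 for all genes tested. With all libraries in the fit, Ly86 alone of the 6 genes lay above the median of the reference markers, and Cd52 lay below that of the ribosomal-tagging list. By animal, the medians of the 6 genes were 4.37, 4.72 and 4.47, against 3.56, 3.88 and 3.36 for the cell-sorting list in animals 201, 207 and 208. Cd84, Cd86, Cd180 and Ly86 are themselves in the cell-sorting list, whereas Cd48 and Cd52 are not. Ly86 is also in the ribosomal-tagging list, which the study drew partly from its own data on the brain of these mice. Among the 235 genes, 98.3% had a smaller log2 fold change than Ly86, 88.1% than Cd180, 86.0% than Cd48, 85.5% than Cd84, 71.5% than Cd86 and 55.7% than Cd52.

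A comparison added after the values had been seen set each gene against the mean of the 8 microglia reference genes in the same library. Positive minus Input, the difference of this log2 ratio was 0.44 for Ly86, 0.15 for Cd180, 0.12 for Cd48, 0.04 for Cd84, -0.24 for Cd86 and -0.57 for Cd52. Only for Ly86 and Cd86 did the fractions not overlap, each with an exact permutation p of 0.1, the smallest possible, and 0.3 adjusted over the 6 genes. For Cd84, Cd48, Cd180 and Cd52 the exact permutation p was 0.9, 1.0, 0.4 and 0.3. No difference from the reference genes could be shown for any of the 6 in this design.

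The genes whose profile over the 6 libraries was most like that of each gene were looked up among 12122 genes with at least 100 scaled reads on average, by the same distance as above. Nearest to Ly86 were Cx3cr1, the gene whose promoter drives Cre here, at 0.256 and the complement gene C1qc at 0.257. Close to Cd86 was Epsti1 at 0.132. Cd180 was nearest to the Fc receptor gene Fcgr2b at 0.239 and to Tnfaip8l2 at 0.257, and Cd84 to the kinase gene Btk at 0.248 and to Rnase4 at 0.284. Cd52 and Cd48 had looser matches, Psd4 at 0.326 and the B cell adaptor gene Bank1 at 0.392 for Cd52, and Tifab at 0.459 and the complement receptor gene C3ar1 at 0.674 for Cd48. With 6 libraries, these distances describe the profiles and were not tested.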

How the data were processed

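Poly(A) RNA was made into strand-specific libraries and read as pairs. The authors trimmed and aligned the reads by strand to mm10 in Strand NGS and counted them for each Ensembl gene. Raw values, as deposited, are expected counts (estimated counts that need not be whole), and the deposited normalized columns hold log2 values scaled by DESeq size factors and centred on Input, per the file headers and values. Of the values per library, 17.4% to 23.1% were whole, that is, within 1e-06 of a whole number. How read mates were counted was not settled, since 64.7% to 69.3% of the whole values below 60 were even. No per-sample column was left unmapped.

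Counts were rounded and tested in R 4.3.3 with edgeR 4.0.16 (glmQLFit, glmQLFTest, RLE scaling), unpaired as in the study, for genes above 20 scaled reads throughout the Input or the Positive libraries, which left out 44 of 15388 genes. A Benjamini-Hochberg adjusted p under 0.05 over all 15344 genes was called. The SE was derived from the F statistic. Log2 ratios between genes used a pseudocount of 1 and exact two-sided permutation tests in scipy 1.17.1. Reads carried no molecular identifiers, so read numbers give counting error only. The fit was tested on simulated data.

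The alternatives were TMM and total count scaling, DESeq2 1.42.0, no filter, a mean of at least 100 scaled reads, the animal as a replicate block, reads halved, limma 3.58.1 on the deposited log2 values, a pseudocount of 0.5 for ratios, and leaving out each library. Groups came from the fraction label. Libraries with the same number come from the same animal, and the correlations of their deviations from the fraction means were 0.273, 0.0847 and 0.150 in animals 201, 207 and 208.

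Genes were named by rule: the 6 genes, every gene of the pathway lists that is in the table, and the 2 nearest profiles of each, of which 1 is not reported here. Marker genes, Mast4 as overlapping gene and Crybg2 were named beside a result. The genes, lists and tests were chosen with earlier results of these data known. Exon lengths and overlaps came from GENCODE M21, which matched 15370 of the 15388 genes, and promoters from RefSeq.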

Additional observations from a re-analysis of the deposited data

How the results depend on the processing

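All 6 genes stayed higher in Positive under every alternative in which they were tested. Cd48 was removed by the filter at a mean of 100 scaled reads and so was not tested there. A paired fit, in which animal was the replicate block, called 7567 genes against 7054 and changed no call among the 6 genes and the pathway lists. For the ratios, the block was an exact test that flips the sign of the difference within each animal. It left the differences as they were, with unadjusted sign-flip p-values of 0.25 or more. With 3 animals 0.25 is the smallest value possible, so this test could not have passed at 0.05. Of the pathway genes other than the 6, 10 were higher under the filter at a mean of 100 scaled reads and 11 with reads halved, against 16, since fewer genes were tested. The number lower was 1 to 4 when single libraries were left out, against 4, and it was 1 without the Input library of animal 201 and 2 without that of animal 207. The difference of the log2 ratio of Cd84 to Cd48 was 0.092 with reads halved and -0.56 to 0.21 when single libraries were left out. Prnp was -0.054 under total count scaling and -0.033 to 0.061 when single libraries were left out. The causes of these sign changes, all in values near 0 and past no threshold, were not tested. If mates were counted separately, the low Input reads of Cd48, Slamf6, Slamf8 and Cd80 are less certain than their number.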
